A study of Nothobranchius furzeri with 228 samples.

Results

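The comparison set short-lived against long-lived males of the turquoise killifish *Nothobranchius furzeri*, 32 of the 114 fish in the dataset, by RNA-seq of their fin clips. Fish carry animal numbers, and the fish numbered 1 to 50, of which 48 have samples, were grouped by age at death. Short-lived fish died under 300 days of age (16 fish, 145 to 298 days, median 261), and long-lived fish died at 360 days or later (16 fish, 364 to 405 days, median 382). Another 16 fish died in between, at 302 to 357 days (median 311), and are called middle-lived. All fish are of the wild-derived strain MZM-0410, and the fin of each was sampled at both 10 and 20 weeks. No treatment or allele separates the groups: the labels separate them by the age that each fish later reached, and 1 strain and 1 sex are covered and the cause of death is not given. Of the 228 libraries, the 32 taken at 20 weeks from both groups carry the comparison, and the 32 taken at 10 weeks from the same fish are its background.

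Total counts at 20 weeks ranged from 18757973 to 29694255 per library in short-lived fish and from 19730781 to 28929017 in long-lived fish. In two-sided permutation tests of total count, the TMM scaling factor, the number of genes detected, the share of the 10 most abundant genes and animal number, adj. P was at least 0.336 at 20 weeks. The groups were spread unevenly over the animal numbers. Of the short-lived fish, 7 were numbered 1 to 26 and 9 were numbered 27 to 50, against 14 and 2 of the long-lived fish. Several gene lists varied with animal number within each lifespan group, and the labels give no batch or date, so values within fish 1 to 26 are given for the main gene lists and genes. The library of long-lived fish 13 at 20 weeks stood apart, with the lowest TMM factor (0.7885) and the fewest genes detected of the libraries of fish 1 to 50 in both groups, and 38.39% of counts in its 10 most abundant genes. Epidermal markers had the highest summed level of the cell type lists examined. The sum of 26 epidermal genes lay between 101000 and 196000 CPM (counts scaled to the library total) in short-lived fish and between 103000 and 289000 CPM in long-lived fish.

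The fin consists of stratified epidermis, dermal fibroblasts, bony rays, vessels, nerves, pigment cells and resident leukocytes, and grows throughout life. Genes are named by their human orthologues, and their roles are given as known from mammals unless fish are named. Cortisol, the main glucocorticoid of fish, binds the receptor encoded by *NR3C1*, which then switches on a shared set of genes in nearly all tissues. Among them are *FKBP5*, a co-chaperone that restrains the receptor, *KLF9*, a transcription factor, *TSC22D3*, an anti-inflammatory leucine zipper protein, and *DDIT4*, an inhibitor of growth signalling through mTOR. The proteasome degrades proteins tagged with ubiquitin, and the circadian clock is a loop in which period and cryptochrome proteins repress their own activators in most cells of the body.

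At 20 weeks no gene passed the threshold. Of 17533 genes tested with edgeR, 0 had an adj. P under 0.05 (0% in either direction), and the lowest adj. P was 0.133. Unadjusted P was under 0.05 for 2747 genes (15.7%), of which 1384 were higher (7.89%) and 1363 lower (7.77%) in short-lived fish. Their differences were mostly small, with a median size of 0.35 on the log2 scale (interquartile range 0.23 to 0.56), and 130 exceeded 1, of which 26 were lower in short-lived fish. With other tools, DESeq2 called 93 genes (61 higher, 32 lower) and limma 0. At 10 weeks, in the same fish, edgeR called 0 genes (0%), DESeq2 and limma also called 0, and unadjusted P was under 0.05 for 393 genes (2.24%), 150 higher (0.856%) and 243 lower (1.39%) in the fish that later died early. The plot of P values shows both distributions. Of the 2747 genes at 20 weeks, 60 also had a P under 0.05 with the same sign at 10 weeks, and 11 with the opposite sign. The shares of 15.7% and 2.24% pooled all animal numbers. In fish 1 to 26, 6.94% of genes had an unadjusted P under 0.05 at 20 weeks and 10.1% at 10 weeks. In fish 27 to 50 the shares were 3.53% and 6.64%, so within each range the share was higher at 10 weeks. Levels at 10 weeks also moved in stretches of neighbouring animal numbers inside each range. The mean log2 CPM of the clock genes, relative to all 96 libraries of fish 1 to 50, was 0.706 in fish 13 and −0.434 in fish 14. It was −0.565 in fish 25, 0.538 in fish 26, −0.494 in fish 35 and 0.312 in fish 36. The shares within a range do not separate lifespan from these stretches.

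**Figure D1:**
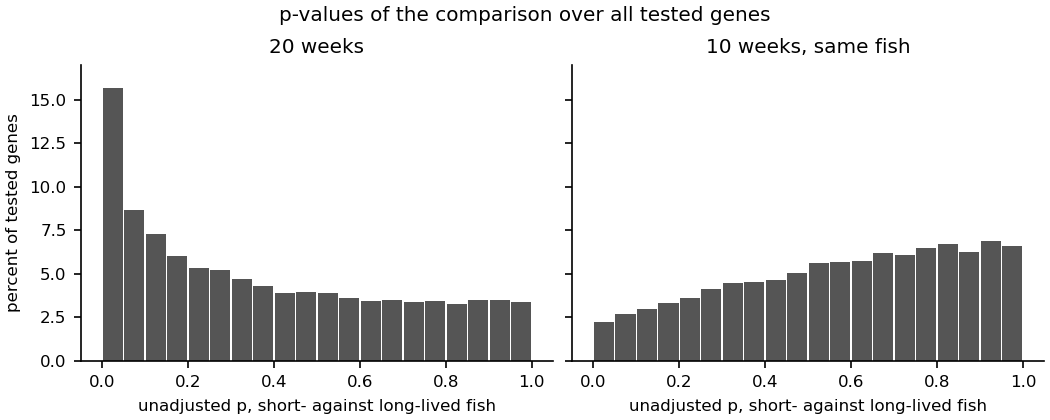
Percent of the 17533 tested genes (vertical axis) in bins of unadjusted P (horizontal axis) for short- against long-lived fish, 16 each, at 20 weeks (left) and 10 weeks (right). The lowest bin holds 15.7% of genes at 20 weeks and 2.24% at 10 weeks, where the bars climb towards high P. All animal numbers are pooled.

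Genes of the glucocorticoid response were higher in short-lived fish at 20 weeks and not at 10 weeks. All 19 tested members of the list had a positive log2 fold change, with a median of 0.55 against 0.00 over all tested genes, and 10 had a P under 0.05 (52.6%, against 7.89% of all genes in that direction). None passed the adjustment over all genes. This and the other lists were chosen with earlier results of these data known. Many of the members were high in the same few fish, so they are not 19 separate observations. At 10 weeks the median of the same members was −0.05, with 0 higher and 1 lower at P under 0.05. Within fish 1 to 26, where edgeR called 1 gene (0.0057%) and 6.94% of all genes had a P under 0.05 (4.25% higher, 2.69% lower), the median was 0.60 (6 members higher, 1 lower), and without the 2 short-lived fish that died soon after the second clip, at 145 and 146 days, it was 0.49 (6 higher, 0 lower, with 7.07% of all genes higher and 7.08% lower).

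*FKBP5* (Nfu_g_1_021435) lay between 11.7 and 618 CPM in short-lived fish at 20 weeks (median 24.4), against 6.74 to 78.9 CPM in long-lived fish (median 15.8). In 6 of the 16 short-lived fish it exceeded every long-lived fish, while the other 10 lay within the range of the long-lived group. The log2 fold change was 2.22 ± 0.55 (SE, P = 0.000314, adj. P = 0.158). At 10 weeks the same fish ranged from 3.22 to 158 CPM (median 18.9) in the short-lived group and from 8.39 to 205 CPM (median 25.1) in the long-lived group, with a log2 fold change of −0.48 (P = 0.328). *KLF9* (Nfu_g_1_008967), the member with the lowest P, spanned 0.89 to 147 CPM in short-lived fish (median 4.62) and 0.36 to 16.5 CPM in long-lived fish (median 1.84). Its log2 fold change was 2.82 ± 0.70 (SE, P = 0.000291, adj. P = 0.158), and 3 short-lived fish stood above all long-lived ones. At 10 weeks the medians of *KLF9* were 4.5 and 4.6 CPM in short- and long-lived fish. Without fish 34 and 9, which died at 145 and 146 days, the values were 1.57 for *FKBP5* (P = 0.00333) and 2.12 for *KLF9* (P = 0.00239). For both genes a minority of the short-lived fish carried the difference. Within fish 1 to 26 the log2 fold change was 2.11 for *FKBP5* (P = 0.00109) and 2.76 for *KLF9* (P = 0.000516).

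The other members at P under 0.05 had smaller differences. *DDIT4* (Nfu_g_1_023065) had a median of 17.8 CPM (8.36 to 216) in short-lived fish and 16.8 CPM (8.9 to 41.4) in long-lived fish, a log2 fold change of 1.21 (P = 0.00997). *TSC22D3* (Nfu_g_1_004440) differed by 1.1 (P = 0.00532) and *CEBPB*, a transcription factor of the acute phase response, by 0.98 (P = 0.0125). For *DDIT4* the medians of the groups were close, and single short-lived fish were far above the rest. *SGK1* (Nfu_g_1_018788), a kinase that controls ion transport, had lower ends that coincided and upper ends that did not: 21.7 to 60.6 CPM (median 41.9) in short-lived fish against 21.8 to 45.2 CPM (median 28.9) in long-lived fish, log2 fold change 0.51 ± 0.13 (P = 0.000457). Within fish 1 to 26 it was 0.19 (P = 0.157), with medians of 30.1 and 27.7 CPM in short- and long-lived fish. *HSD11B2*, which inactivates cortisol, and 2 identifiers paired with *ZBTB16* completed the members of the list with a P under 0.05, together with *PER1*, which is also a clock gene. The remaining 9 members, among them the other identifiers paired with *TSC22D3*, had log2 fold changes between 0.19 and 0.86. The receptor gene *NR3C1* was also among these 9, at 0.35 (P = 0.162).

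Many of the members were high in the same fish. On the scale of the mean log2 CPM of the list, relative to all 96 libraries of fish 1 to 50, short-lived fish ranged from −0.60 to 2.1 (median −0.16) and long-lived fish from −0.91 to 0.58 (median −0.34), and 5 of 16 short-lived fish lay above every long-lived fish. The medians of short- and long-lived fish were close within fish 1 to 26 (−0.15 and −0.21) and within fish 27 to 50 (−0.40 and −0.53). Fish 34, which died at 145 days, had the highest mean (2.1), with 618 CPM of *FKBP5* and 147 CPM of *KLF9*, and was the highest short-lived fish for 12 of the 19 members. For *NR3C1* and for 1 identifier paired with *ZBTB16* it ranked 15 of 16. By the mean of the list, fish 10 followed at 1.64 (349 and 62.7 CPM) although it lived to 272 days, and fish 3, which died at 181 days, at 1.31 (137 and 72.4 CPM). Fish 9, which died at 146 days, reached only 0.19, and fish 37, which died at 182 days, −0.46. Short-lived fish with a mean above 0 died at 145, 146, 181, 188, 221, 263 and 272 days, and those below 0 at 182 to 298 days. High levels were thus not general among the short-lived fish and followed the days left to live only in part. At 10 weeks 0 of 16 short-lived fish exceeded the long-lived group on this scale. The list was nevertheless high in some fish of both groups at that age. Long-lived fish 11, 12 and 13, which are neighbours in number, had means of 1.08, 1.24 and 1.14, and long-lived fish 46 had 0.96. Short-lived fish 41 had 1.24. Middle-lived fish had a median *FKBP5* of 36.9 CPM (5.37 to 221) at 20 weeks, above the medians of both other groups, and a median *KLF9* of 3.09 CPM (0.865 to 15.7), between them.

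**Figure D2:**
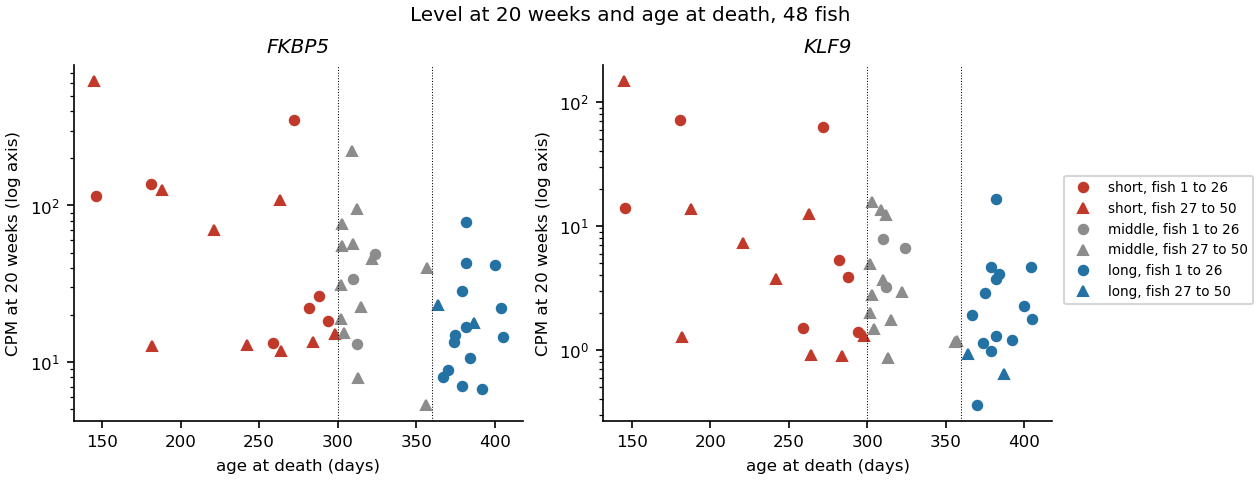
*FKBP5* and *KLF9* at 20 weeks (CPM, log axis) against age at death in days for the 48 fish. Colours mark short-, middle- and long-lived fish, circles fish 1 to 26 and triangles fish 27 to 50, and dotted lines the limits at 300 and 360 days. The highest levels, 618 and 147 CPM, belong to the fish that died at 145 days, and most short-lived fish overlap the long-lived ones.

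A leukocyte gene followed the same fish. *SIGLEC1* (Nfu_g_1_016812), a sialic acid receptor of macrophages, lay between 1.65 and 80.4 CPM (median 6.92) in short-lived fish and between 0.063 and 9.80 CPM (median 2.69) in long-lived fish, a log2 fold change of 2.1 ± 0.51 (SE, P = 0.000242, adj. P = 0.158). In 6 short-lived fish it exceeded all long-lived fish. It was 80.4 CPM in fish 34, 43.2 CPM in fish 40, 39.1 CPM in fish 3 and 22.8 CPM in fish 10, the 4 fish with the highest mean of the glucocorticoid list. At 10 weeks the medians were 4.28 and 3.54 CPM in short- and long-lived fish (log2 fold change −0.12, P = 0.739). The log2 fold change at 20 weeks within fish 1 to 26 was 1.72 (P = 0.00521). The lowest long-lived value, 0.063 CPM, was that of fish 13, and without this fish the log2 fold change was 2.03 (P = 0.000294).

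Of 17 tested leukocyte markers, 6 were higher and 0 lower at P under 0.05 (35.3%, against 7.89% of all genes higher). The median log2 fold change was 0.27, and at 10 weeks the counts were 0 and 0 with a median of −0.10. Among fish 1 to 26 alone, 2 were higher and 0 lower, with a median of 0.21, and on the scale of the mean log2 CPM of the list the medians of short- and long-lived fish nearly met there (0.00 and −0.02). Fish 13 had the lowest mean of the long-lived group on that scale (−0.87), and without it 7 of 17 were higher, against 8.12% of all genes (7.13% lower, 15.2% in both directions). *TAGAP*, a GTPase activator of T cells, had medians of 23.6 CPM (10.4 to 70.8) in short-lived fish and 17.4 CPM (10.6 to 25.3) in long-lived fish, log2 fold change 0.64 (P = 0.00393), and 0.36 within fish 1 to 26 (P = 0.156). *WDFY4*, which serves antigen presentation by dendritic cells, differed by 0.24 (P = 0.0043), with 69.9 to 114.9 CPM in short-lived fish against 54.2 to 98.9 CPM in long-lived fish, and by 0.20 within fish 1 to 26 (P = 0.0618). *CD68*, another macrophage marker, had a log2 fold change of −0.07 (P = 0.746). The summed level of the leukocyte markers was 852 to 2050 CPM (median 921) in short-lived fish and 718 to 1130 CPM (median 914) in long-lived fish, with 0 markers at 0 in all libraries. In these bulk samples more leukocytes and more RNA per leukocyte cannot be told apart, and the part of the leukocyte markers in the other differences was not tested.

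Complement and coagulation genes encode plasma proteins made mainly by the liver and in part by cells of the skin. Of 26 tested members 9 were higher and 0 lower at P under 0.05, where 7.89% of all genes were higher and 7.77% lower. The median log2 fold change was 0.30, against −0.10 at 10 weeks. *F13A1*, which crosslinks fibrin and is made by macrophages, lay between 74.01 and 187 CPM (median 108.2) in short-lived fish and between 24.9 and 135 CPM (median 89.3) in long-lived fish, log2 fold change 0.42 ± 0.14 (P = 0.00654, adj. P = 0.192), and 0.47 within fish 1 to 26 (P = 0.0181). *CFB*, a protease of the alternative complement pathway, differed by 1.06 (P = 0.00961), and the 2 identifiers of the pore-forming *C7* by 0.37 and 0.72 (P = 0.0242 and 0.0255). *C4B*, a component of the classical pathway, had medians of 282 and 253 CPM in short- and long-lived fish, with maxima of 2288 and 627 CPM (P = 0.104). Within fish 1 to 26, 1 member was higher and 1 lower at P under 0.05, and the median was 0.15. Fish 13 also had the lowest mean of this list among long-lived fish (−0.76), and without it 9 members were higher and 0 lower.

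Clock genes differed between the groups, yet for most of them not within fish 1 to 26. Of 23 tested members 9 were higher and 2 lower at P under 0.05, where 7.89% of all genes were higher and 7.77% lower. The median log2 fold change was 0.17, and within fish 1 to 26 the counts were 1 higher and 3 lower. *PER3*, a period gene that represses the clock's activators, had a median of 95.05 CPM (5.46 to 154) in short-lived fish and 23.95 CPM (4.797 to 109.4) in long-lived fish (log2 fold change 1.05, P = 0.0436). Among fish 27 to 50, short-lived fish had a median of 131 CPM and the 2 long-lived fish 98.3 CPM. Among fish 1 to 26 the medians were 10.4 CPM in short-lived and 17.4 CPM in long-lived fish, and the log2 fold change was −1.14 (P = 0.035). The pooled difference therefore had the opposite sign of the difference within fish 1 to 26. *PER1* (Nfu_g_1_003740) behaved alike, at 1.12 over all fish (P = 0.0122) and −0.78 within fish 1 to 26 (P = 0.0424).

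*NR1D2*, *TEF* and *HLF* had the same sign in both ranges. *NR1D2* (Nfu_g_1_010960), a nuclear receptor that represses *ARNTL*, lay between 15.2 and 244 CPM (median 66.6) in short-lived fish and between 14.1 and 61.8 CPM (median 29.6) in long-lived fish, and 9 of 16 short-lived fish exceeded every long-lived fish. The log2 fold change was 1.22 ± 0.30 (SE, P = 0.000288, adj. P = 0.158), and the medians of short- and long-lived fish were 42.7 and 27.5 CPM among fish 1 to 26, and 66.8 and 40.6 CPM among fish 27 to 50. *TEF* (Nfu_g_1_019542) and *HLF* (Nfu_g_1_001056), related transcription factors driven by the clock, differed by 1.56 ± 0.39 (SE, P = 0.000276) and 1.5 ± 0.38 (SE, P = 0.000391). With animal number as a spline in the model the values were 0.96 for *NR1D2* (P = 0.00165), 1.25 for *TEF* (P = 0.00659) and 0.93 for *HLF* (P = 0.0147). At 10 weeks their log2 fold changes were 0.21, −0.26 and −0.02. Of the other 3 identifiers paired with *NR1D2*, 1 differed by 0.86 (P = 0.0309) and the others by −0.10 (P = 0.696) and −0.53 (P = 0.325), and the other 3 paired with *HLF* had log2 fold changes between −0.21 and 0.17.

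**Figure D3:**
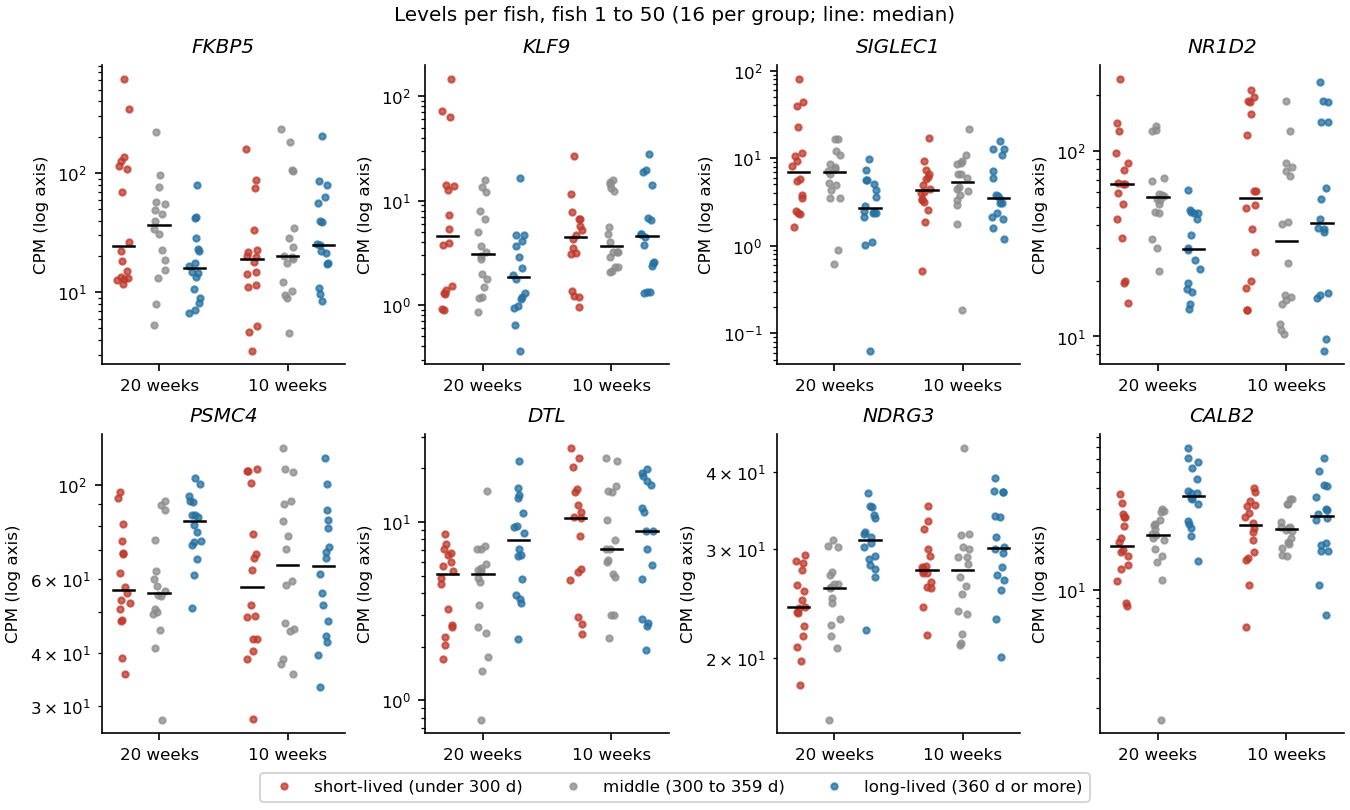
CPM (log axis) of 8 genes in each of the 48 fish at 20 weeks (left 3 columns of points) and 10 weeks (right 3 columns), in the order short-, middle- and long-lived, with a line at the median of 16 fish. At 20 weeks the upper genes reach higher in short-lived fish (*NR1D2*, Nfu_g_1_010960, median 66.6 against 29.6 CPM) and the lower genes lie lower (*NDRG3*, median 24.1 against 31.03 CPM), and at 10 weeks the groups overlap.

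Over all fish, proteasome subunits had lower levels in the short-lived group by small amounts. All 27 tested members had a negative log2 fold change, with a median of −0.21, and 16 had a P under 0.05 (59.3%, against 7.77% of all genes in that direction), while at 10 weeks none did and the median was 0.04. *PSMC4* (Nfu_g_1_016730), an ATPase of the base of the regulatory particle, lay between 35.6 and 96.5 CPM (median 56.5) in short-lived fish and between 51.03 and 104.1 CPM (median 82.3) in long-lived fish, log2 fold change −0.40 ± 0.12 (SE, P = 0.00233, adj. P = 0.174). In 5 short-lived fish it was below every long-lived fish. *PSMD2*, a scaffold of the same particle, differed by −0.24 (P = 0.02) and *PSMA1*, a subunit of the core, by −0.23 (P = 0.0235).

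The level also differed with animal number. Among fish 27 to 50 the median of *PSMC4* was 52.4 CPM in short-lived and 56.2 CPM in long-lived fish, and among fish 1 to 26 it was 73.7 CPM and 84.4 CPM in short- and long-lived fish. Within fish 1 to 26, where its log2 fold change was −0.17 (P = 0.144), 0 of 27 subunits had a P under 0.05 and the list's median was −0.07. Among fish 27 to 50, with only 2 long-lived fish, the sign of the list turned: its median was 0.04, 14 of 27 subunits were positive and 0 had a P under 0.05 (3.53% of all genes, 1.79% higher and 1.75% lower). With animal number as a spline, a fit in which 5.87% of all genes were higher and 4.14% lower at P under 0.05, 1 subunit was lower and the median was −0.12. *NFE2L1*, the transcription factor that raises proteasome genes when degradation is impaired, was lower as well, at 48.7 to 74.6 CPM (median 60.1) in short-lived fish against 52.3 to 86.5 CPM (median 73.8) in long-lived fish. Its log2 fold change was −0.29 ± 0.07 over all fish (SE, P = 0.000327, adj. P = 0.158) and −0.17 within fish 1 to 26 (P = 0.0257). For the proteasome list at 10 weeks the ranges went opposite ways. Its mean log2 CPM relative to all 96 libraries was then 0.35 in short-lived and −0.03 in long-lived fish within fish 1 to 26. Among fish 27 to 50 at 10 weeks the values were −0.33 and −0.17. Levels at that age also changed between neighbouring numbers inside a range, from −0.657 in fish 13 to 0.602 in fish 14, both long-lived. These values therefore do not separate lifespan from animal number.

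Genes of DNA replication and mitosis also had lower levels in short-lived fish over the pooled animal numbers, and less so within each range. Of 80 tested members 0 were higher and 29 lower at P under 0.05 (36.2%, against 7.77% of all genes lower), with a median log2 fold change of −0.28. At 10 weeks 15 members were lower (1.39% of all genes were), with a median of −0.25, but the ranges of animal numbers went opposite ways. Within fish 1 to 26 at 10 weeks, the mean of the list (log2 CPM, relative to all 96 libraries) was 0.68 in short-lived fish. In long-lived fish of that range it was 0.27. Among fish 27 to 50 at 10 weeks the values were −0.26 and 0.82, with only 2 long-lived fish. Here too levels changed between neighbouring numbers inside a range, from −0.651 in fish 13 to 1.09 in fish 14, both long-lived. *DTL* (Nfu_g_1_018682), a receptor of the ubiquitin ligase that limits replication to once a cycle, had a median of 5.08 CPM (1.699 to 8.56) in short-lived fish and 7.88 CPM (2.205 to 22.1) in long-lived fish, log2 fold change −0.89 ± 0.27 (SE, P = 0.00267, adj. P = 0.174). *MCM6*, a subunit of the replicative helicase, had medians of 45.7 and 71.3 CPM in short- and long-lived fish (log2 fold change −0.79, P = 0.00704). At 10 weeks their log2 fold changes were 0.15 (P = 0.668) and 0.19 (P = 0.62), so that neither was among the 15 members lower at that age. Within fish 1 to 26, 2 members were higher and 2 lower and the median was −0.07, with −0.65 for *DTL* (P = 0.0795) and −0.53 for *MCM6* (P = 0.148). Without fish 13, 36 members were lower over all numbers.

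**Figure D4:**
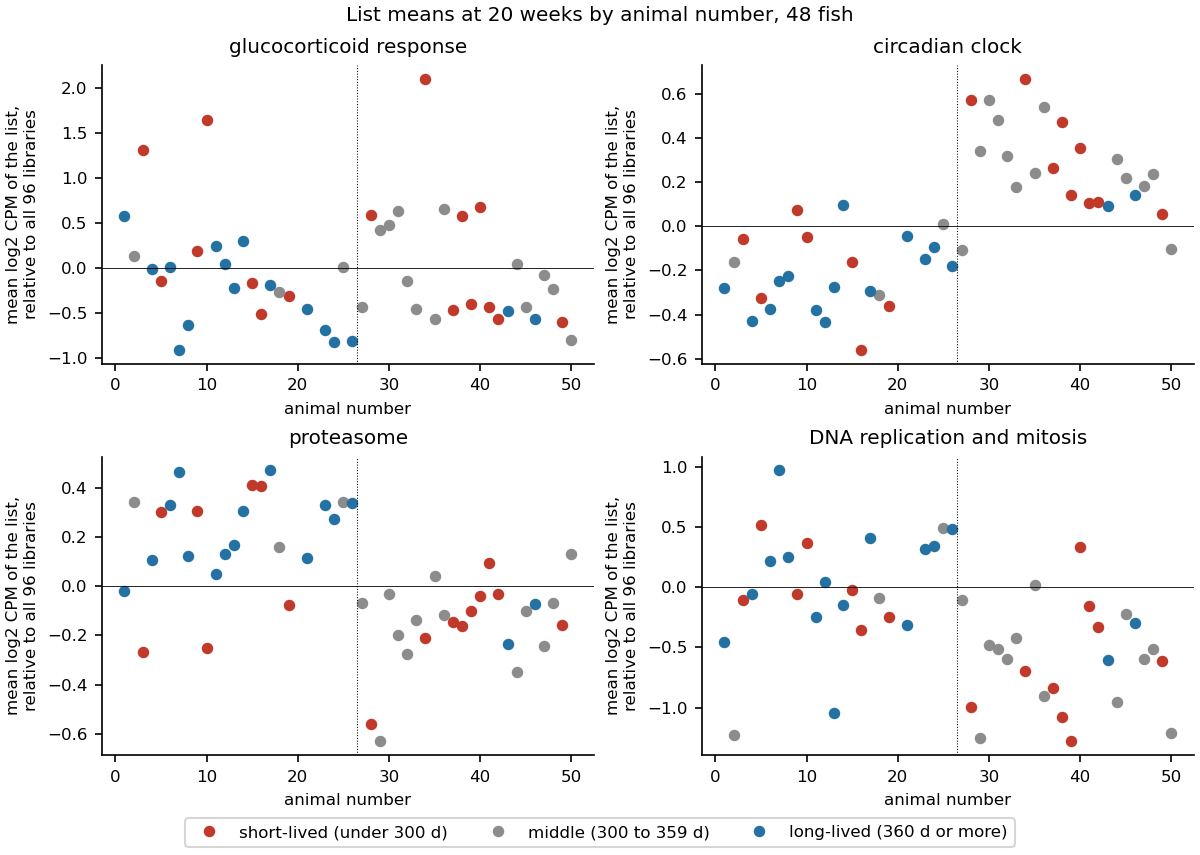
Mean log2 CPM of 4 gene lists at 20 weeks, relative to all 96 libraries (vertical axis), against animal number (horizontal axis) for the 48 fish, coloured by lifespan, with a dotted line between fish 26 and 27. Clock genes are higher and proteasome genes lower in most fish above 26, where only 2 of the long-lived fish are found, whereas the high values of the glucocorticoid list (up to 2.1) fall on both sides.

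The genes with the lowest P outside the lists, chosen after their values were seen, were mostly lower in short-lived fish by modest amounts and with partial overlap. *NDRG3* (Nfu_g_1_014562), of a family induced by hypoxia and stress, lay between 18.1 and 29.3 CPM (median 24.1) in short-lived fish and between 22.2 and 36.96 CPM (median 31.03) in long-lived fish. None of the 16 short-lived fish exceeded the median of the long-lived group. The log2 fold change was −0.35 ± 0.07 (SE, P = 1.82e-05, adj. P = 0.151), and −0.37 within fish 1 to 26 (P = 0.000234). *ARL6IP1*, which shapes the endoplasmic reticulum, differed by −0.29 ± 0.06 (SE, P = 6.57e-05), with medians of 136 CPM in short-lived fish and 159.4 CPM in long-lived fish and 7 short-lived fish below every long-lived one, by −0.25 within fish 1 to 26 (P = 0.00886) and already by −0.18 at 10 weeks (P = 0.0294). *CALB2*, the calcium-binding protein calretinin, had medians of 18.3 CPM (8.04 to 37.01) in short-lived fish and 36.1 CPM (14.8 to 69.6) in long-lived fish, log2 fold change −0.93 ± 0.21 (SE, P = 9.47e-05, adj. P = 0.151), and −0.69 within fish 1 to 26 (P = 0.0102).

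Among all genes, the lowest P belonged to an identifier with no name, Nfu_g_1_005360, at a mean of 0.618 CPM (log2 fold change 1.91, P = 7.59e-06, adj. P = 0.133). It was already higher at 10 weeks, by 1.3 (P = 0.00998). Another, Nfu_g_1_003257, was the 1 gene called within fish 1 to 26, where its median was 4.88 CPM (0.0849 to 11.8) in short-lived and 0.188 CPM (0.0387 to 0.72) in long-lived fish (adj. P = 0.0129). Its difference too was present at 10 weeks (log2 fold change 3.13, P = 0.000259), and among fish 27 to 50 the sign was the opposite (−0.39, P = 0.69).

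The remaining lists differed little, as the plot of list medians shows. Their medians lay between −0.11 and 0.18 on the log2 scale apart from that of 8 nerve and glia genes, whose median was −0.23 with 0 genes at P under 0.05. Counts at P under 0.05 stand beside 7.89% of all genes higher and 7.77% lower. In the endoplasmic reticulum list 2 of 43 genes were higher and 5 lower, and *UGGT1*, a sensor of misfolded glycoproteins, had the lowest P (log2 fold change −0.37, P = 0.0257). Respiratory chain and fatty acid genes had 0 higher and 4 lower of 26 and 0 higher and 5 lower of 27. *ATP5B*, the catalytic subunit of ATP synthase, had medians of 472 and 582 CPM in short- and long-lived fish (−0.22, P = 0.00292), and *CPT1A*, which admits fatty acids to mitochondria, 46.3 and 58.6 CPM (−0.30, P = 0.0099). Of 35 immediate early genes 7 were higher and 1 lower. The lower one, *ZFP36L1*, which destabilises messenger RNAs, had the lowest P (−0.20, P = 0.00575), and *KLF6*, a transcription factor, led the higher ones (0.53, P = 0.00588), while within fish 1 to 26 the counts were 4 and 2 and the median −0.08. Of 50 matrix genes 4 were higher, led by *THBS2*, an adhesive glycoprotein, at 152 and 81.2 CPM in short- and long-lived fish (0.77, P = 0.00194).

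Of the other cell types, endothelium had 3 of 11 markers higher and 1 lower, where 7.89% of all genes were higher and 7.77% lower. Its sum was 84 to 213 CPM in short-lived fish and 83.9 to 152 CPM in long-lived fish. Epidermis had 4 of 26 higher, and the erythrocyte, pigment cell, nerve, bone and muscle lists had at most 2 members in either direction. In the other lists the member with the lowest P stood mostly alone. Mineralisation phosphatase *PHOSPHO1*, 1 of 4 bone genes at P under 0.05, had medians of 2.94 CPM (1.12 to 10.5) in short-lived fish and 1.83 CPM (1.01 to 3.56) in long-lived fish (log2 fold change 1.08, P = 0.000671), and 1.01 within fish 1 to 26 (P = 0.00316). Co-chaperone *BAG3* differed by 0.35 (P = 0.00613), desmosomal *DSC3* by 0.49 (P = 0.013) and lysosomal *SCPEP1* by 0.35 (P = 0.016). Glycolytic *PGAM2*, which is also a muscle gene, differed by −0.33 (P = 0.0025). The sterol enzyme *SQLE* differed by 1.42 (P = 0.0107) at a median of 0.427 CPM in short-lived and 0.387 CPM in long-lived fish. The globin *HBG1* (Nfu_g_1_007507) rested on 1 fish: its log2 fold change was 2.62 (P = 0.000588), with 27.8 CPM in the highest short-lived fish, and 0.54 without fish 34. *RCL1*, *MRPL38*, *RPS27A*, *ADGRL4* and *CNN1* had a P between 0.0181 and 0.0466, and *PSMD5*, *UBA7* and *OCA2* between 0.0794 and 0.522.

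**Figure D5:**
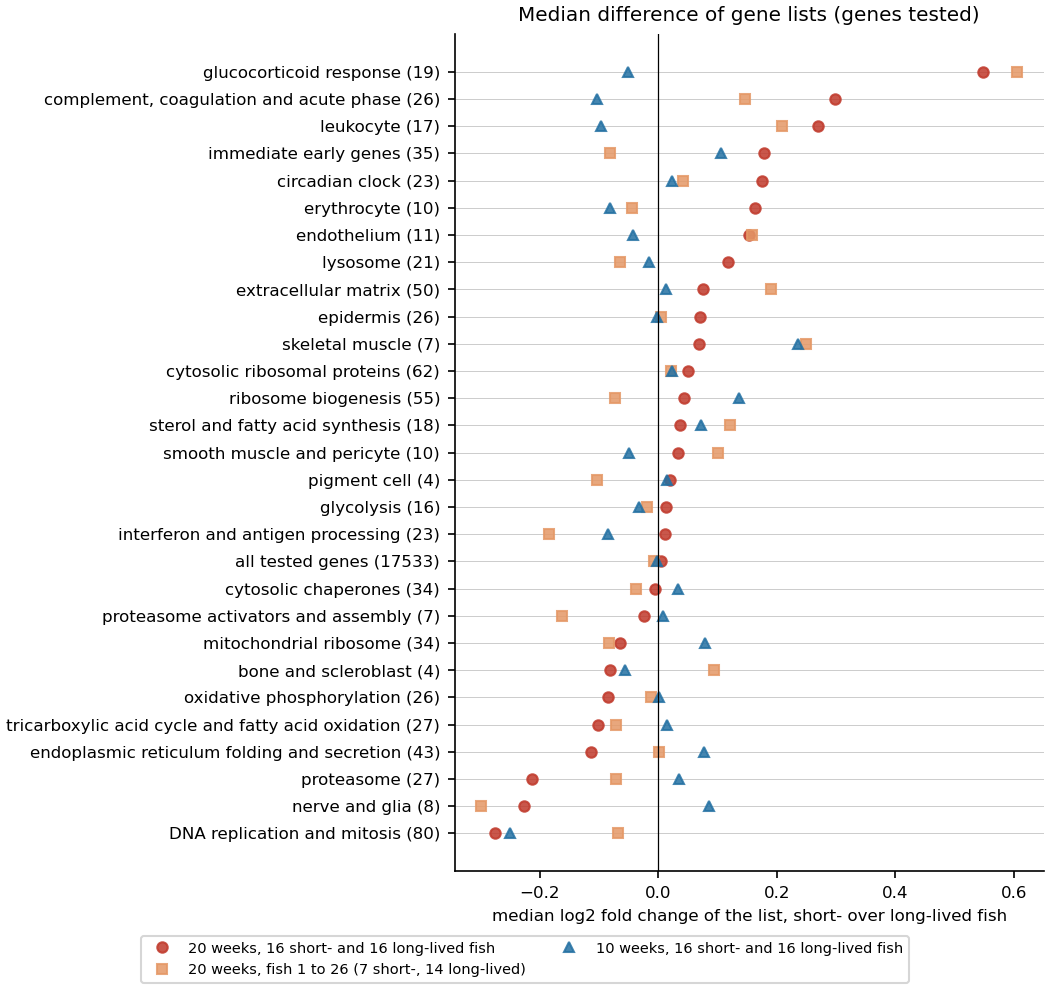
Median log2 fold change, short- over long-lived fish, of the gene lists (number of tested genes in brackets) at 20 weeks, at 20 weeks within fish 1 to 26, and at 10 weeks. The glucocorticoid list lies highest at 20 weeks (0.55) and within fish 1 to 26 (0.60) and near 0 at 10 weeks, and the proteasome list moves from −0.21 over all fish to −0.07 within fish 1 to 26.

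Age at death as a continuous measure over the 48 fish gave more calls than the 2 groups. With edgeR 850 genes were called (4.85%), 638 with higher (3.64%) and 212 with lower levels (1.21%) in shorter lives, including 11 of the 19 glucocorticoid genes and 1 of the 27 proteasome genes. Without the 2 fish that died at 145 and 146 days, 766 genes were called (4.37%), of which 512 were also among the 850 (60.2% and 66.8% of the lists), and 3 of the 19 glucocorticoid genes were called. With animal number added as a spline, 0.644% of genes were called, nearly all with higher levels in shorter lives (0.587%, and 0.057% or 10 genes lower). They included 5 of the 19 glucocorticoid genes, 2 leukocyte genes, 2 clock genes and 0 proteasome genes. Also among them were the matrix genes *FN1* (adj. P = 0.0378) and *THBS1* (adj. P = 0.0151), *PIM1* of the immediate early list, *PHOSPHO1* of the bone list and *MYBPH* of the muscle list. In that fit *KLF9* rose by 1.94 on the log2 scale for each 100 days of shorter life (adj. P = 0.00244), *SIGLEC1* by 1.31 (adj. P = 0.00781), *DDIT4* by 1.12 (adj. P = 0.00424) and *FKBP5* by 1.31 (adj. P = 0.0254). *ARL6IP1* fell by 0.16 (adj. P = 0.0296). This fit kept the 2 fish that died at 145 and 146 days and was not repeated without them. It also called *HBG1* (adj. P = 0.0186), whose group difference rested on the fish that died at 145 days. How far the adj. P values of this fit rest on these 2 fish was therefore not tested. A Cox model of the level called 210 genes (1.2%), and 0 with fish 1 to 26 and 27 to 50 as strata, where 789 had an unadjusted P under 0.05 (4.5%).

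The change within each fish between 10 and 20 weeks was compared with limma. Of 17533 genes 0 were called (0%, lowest adj. P 0.542), and 1578 had an unadjusted P under 0.05 (9%), 815 with a higher (4.65%) and 763 with a lower (4.35%) change in short-lived fish. Among the glucocorticoid genes 4 of 19 had a higher change, with a median of 0.38, and *FKBP5* differed by 2.03 ± 0.73 (SE, P = 0.00878). Leukocyte genes (6 of 17, median 0.37) and complement and coagulation genes (8 of 26, median 0.41) had the highest shares. The changes include the levels at 10 weeks, when the glucocorticoid mean was high in long-lived fish 11 to 13 (1.08 to 1.24) and short-lived fish 41 (1.24). Leukocyte and complement means were then low in neighbouring fish 28 (−0.947 and −0.644) and 29 (−1.2 and −0.704). Pooled over animal numbers, the changes of these lists do not separate lifespan from such stretches. *C4B*, whose level did not pass P under 0.05 at 20 weeks, differed in its change by 1.03 ± 0.30 (SE, P = 0.00176), with log2 fold changes of 0.59 at 20 weeks and −0.37 at 10 weeks. Proteasome genes had 1 of 27 with a lower change and a median of −0.23 over the pooled numbers, and the ranges differed. Within fish 1 to 26 the list mean (log2 CPM, relative to all 96 libraries) fell from 0.351 to 0.119 in short-lived fish. In long-lived fish of that range it rose from −0.0252 to 0.228. Among fish 27 to 50 it rose from −0.331 to −0.146 in short-lived fish and stayed near its level in the 2 long-lived fish (−0.165 and −0.154). Long-lived fish 11, 12, 13, 24 and 26 had list means of −0.657 to −0.375 at 10 weeks and 0.0512 to 0.338 at 20 weeks. In long-lived fish 14 and 17 the mean fell, from 0.602 to 0.306 and from 0.58 to 0.471. The changes by range therefore do not separate lifespan from the stretches of animal numbers at 10 weeks.

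The same age limits were applied to the fish numbered 85 and above, with 6 short-lived and 18 long-lived fish, 2 of the short-lived having also died soon after the second clip. Here 2 genes were called (0.0114%), both higher, and 1245 had an unadjusted P under 0.05 (7.1%), 3.1% higher and 4% lower. Of the 2747 genes at P under 0.05 in fish 1 to 50, 1787 had the same sign (65.1%), against 54% of all tested genes, and 185 also had a P under 0.05 with that sign, against 47 with the opposite sign. The glucocorticoid list had 9 of 19 members higher and 1 lower, with a median of 0.44, a difference that rested on the 2 early deaths. *FKBP5* lay between 5.01 and 127 CPM (median 26.6) in these short-lived fish and between 8.76 and 51.7 CPM (median 16.6) in the long-lived ones, log2 fold change 1.42 (P = 0.00173), and *KLF9* differed by 1.84 (P = 0.00104) and *SIGLEC1* by 1.12 (P = 0.00968). A fish among these deaths was the highest short-lived fish for all 3 genes. Without both of them the list had 0 members higher and 1 lower with a median of −0.07, the log2 fold changes were −0.07 for *FKBP5* (P = 0.861), 0.49 for *KLF9* (P = 0.372) and 0.29 for *SIGLEC1* (P = 0.521), and edgeR called 0 genes, with 566 at an unadjusted P under 0.05 (3.23%, 1.03% higher and 2.2% lower). *SGK1* was the lower member with the early deaths included, with a log2 fold change of −0.24 (P = 0.0104), and its difference from fish 1 to 50 had a P of 0.00018 (adj. P = 0.489).

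Proteasome genes had 0 of 27 at P under 0.05 in fish 85 and above, with a median of −0.06, and replication genes 3 of 80 lower. A gene called with the early deaths included, and not without them, was *C3* (Nfu_g_1_015843), the central complement component, at 12.8 to 91.8 CPM (median 42.4) in short-lived fish against 4.49 to 24.1 CPM (median 14.1) in long-lived fish (log2 fold change 1.8, adj. P = 0.037). In fish 1 to 50 the medians of *C3* were 18.4 and 13.7 CPM in short- and long-lived fish (0.44, P = 0.117). The difference of the contrast between these fish and fish 1 to 50 passed the adjusted threshold for 0 genes with edgeR (1129 at an unadjusted P under 0.05, 6.44%). Fish 51 to 84 held 28 short-lived and only 3 long-lived fish, in which 0 genes were called and 169 had an unadjusted P under 0.05 (0.964%), 0.508% higher and 0.456% lower. Some of these short-lived fish had also died soon after the second clip, and short- against long-lived fish of this range were not compared without them. Of the 2747 genes at P under 0.05 in fish 1 to 50, 2010 had the same sign in fish 51 to 84 (73.2%), against 58.6% of all tested genes. Of these 2747, 17 also had a P under 0.05 with that sign, and 3 with the opposite sign. There the median of the glucocorticoid list was 0.34 with 0 of 19 members at P under 0.05, and 0 genes differed in contrast from fish 1 to 50 (232 at an unadjusted P under 0.05, 1.32%).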

How the data were processed

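Per the labels, libraries were made from fin clips with the TruSeq RNA v2 kit, which keeps no strand, so reads of genes that overlap on opposite strands may be assigned to either. Reads of nearly identical genes may also be assigned to either, whatever the strand. Software listed by the submitters comprises bcl2fastq (1.8.4), TopHat2 (2.1.0) and featureCounts (1.5.0), and for these libraries the study's methods refer to earlier work, so that the genome build is not given in the sources used here. Whole-number counts of 26739 genes in 228 libraries were deposited by the authors without normalization. Totals give the precision: at 18042141 to 31412832 counts per library in the 64 libraries, a gene at 1 CPM rests on few counts.

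Genes were kept with edgeR's filterByExpr (17533, 99.95% of counts) and tested with its two-sided quasi-likelihood test (edgeR 4.0.16, R 4.3.3, TMM), with Benjamini-Hochberg adjustment at 0.05. CPM were computed from TMM-scaled totals, and standard errors of log2 fold changes from the F statistic. Changes within fish used limma 3.58.1 on log2 CPM with a prior count of 1. DESeq2 1.42.0, a Cox model (survival 3.8.3), splines of animal number with 3 degrees of freedom and leaving out fish were alternatives. Library measures were compared by permutation (100000 resamples). The scripts' tests were tested on simulated data.

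Gene names come from the pairs of identifier and orthologue in the study's supplementary tables, which cover 4938 of the tested genes (28.2%). An identifier counted as a member of a list if any name paired with it was in the list, and 0 identifiers matched the RefSeq table. Groups, lists and rules were chosen with earlier results of these data known. Names were given to the called genes of each list or, where none was called, to the member with the lowest P, and every other gene named was chosen after its values were seen. For 2 lists that member is not reported here.

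Pairing comes from the fish named in the labels. Deviations from the group means had a mean correlation of 0.334 between both libraries of a fish, against −0.0106 between different fish. No 2 libraries were identical, and the closest pair at 20 weeks differed by a chi-square of 12.3 per degree of freedom. Nothing says that libraries of 1 fish were made more than once, and each fish is 1 replicate.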

Additional observations from a re-analysis of the deposited data

Results flagged for a closer look

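Within groups of short-lived fish of 1 range of animal numbers, single fish stood far above the others for 2 glucocorticoid-responsive genes at 20 weeks. *FKBP5* was 349 CPM in fish 10 among the 7 short-lived fish numbered 1 to 26, where the next value was 137 CPM and the median 26.6 CPM. Among the 9 short-lived fish numbered 27 to 50 it was 618 CPM in fish 34, with the next at 126 CPM. *KLF9* was 147 CPM in fish 34, against 13.8 CPM in the next fish of the same range. Of 15 groups of fish and genes examined in this way, chance passes the limit used in about 1 of 20 if values are normally distributed, which skewed CPM are not, and the genes were chosen with their values known. Without fish 34 the log2 fold change of *KLF9* was 2.13, against 2.82 with it.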

How the results depend on the processing

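At 20 weeks edgeR called 0% of the tested genes, and 0% also with DESeq2's size factors, without a filter, with the spline of animal number, and without the 2 earliest deaths. DESeq2's own test called 0.53%. Fish 1 to 26 alone called 0.0057%, the fit with middle-lived fish 0.0057%, and leaving out fish 43 0.0114%. Leaving out each fish in turn called 0% to 0.0171% (3 genes without fish 9, 2 without fish 43, and 1 each without fish 10, 16 and 46), with 2244 to 3309 genes at an unadjusted P under 0.05. Age at death as a continuous covariate called 4.85%, the Cox model 1.2%, and, chosen after seeing the data, the continuous fit with the spline 0.644% and without the earliest deaths 4.37%. Unadjusted counts at 20 weeks were 1756 with the spline, 1217 in fish 1 to 26, 619 in fish 27 to 50 and 789 with the Cox strata, which were also added later. At 10 weeks, where each alternative called 0 genes, they were 789 without a filter, 887 with the spline, 1766 in fish 1 to 26, 1164 in fish 27 to 50, 668 in the continuous fit without the earliest deaths and 771 with the Cox strata, against 393. The fit without a filter tested 22875 genes, and its 789 were 3.45% of them, against 2.24% for the 393. The causes of the differences between these fits were not tested. For the change, the fit with no replicate block, that is without the pairing of fish, had 926 genes at an unadjusted P under 0.05, against 1578. The spline gave 2517, fish 1 to 26 gave 2673, and the Cox model gave 2920 and called 0.0399%. The contrast with fish 51 to 84 had 194 to 389 such genes when 1 of its 3 long-lived fish was left out, 389 without fish 80. The sign turned within fish 1 to 26 for *PER3* (−1.14) and *PER1* (−0.78), and in fish 27 to 50 for the median of the proteasome list (0.04). Among the genes with the lowest P of each list it turned for *RCL1* (−0.0266 in fish 1 to 26, −0.0513 with the Cox strata), *MRPL38* (0.036), *UBA7* (0.177) and *F13A1* (−0.0985) in fish 27 to 50, *UGGT1* (0.0278) and *CNN1* (−0.101) in fish 1 to 26, *DTL* (0.0223 with the Cox strata) and *OCA2* (−0.0251 in fish 27 to 50, −0.0274 and −0.095 in the continuous fits without and with the spline). Of these values, those with the Cox strata are log hazard coefficients of the log2 level. Those of the continuous fits are log2 differences for each 100 days of shorter life, and the others are log2 fold changes. In fish 1 to 26, short- minus long-lived differences turned to −2.357 for animal number at both ages, and at 10 weeks to 1013226 for the total count, 0.03116 for the TMM factor and −2.059 percentage points for the 10 most abundant genes. In fish 85 and above, leaving out the 2 early deaths, chosen after seeing the data, gave 0 calls in place of 2. Values under 1 CPM are limited by depth. Fish 27 to 50 and 51 to 84 hold only 2 and 3 long-lived fish, so lifespan and animal number cannot be fully told apart.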
